A study of Homo sapiens with 10 samples.

Results

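The 10 genes described here, ERCC1, ERCC2, ERCC3, ERCC4, ERCC5, ERCC6, ERCC8, XPA, XPC and DDB2, encode core factors of nucleotide excision repair, and were taken by name from the 61533 genes in the RNA-seq count tables. All 10 passed the filter on low counts, as did 16181 genes in all. T24 is a human bladder cancer cell line, and T24R2 is its cisplatin-resistant derivative, made from it by serial exposure to the drug. Each line was represented by 5 libraries of total RNA from cells at day 3 of culture, in RPMI with fetal bovine serum and antibiotics. The study's methods keep T24R2 in cisplatin whereas the sample labels list no drug for either line, so the derived line and ongoing exposure cannot be told apart in this comparison, and a single derived line is the only resistant model. Whether the 5 replicates of a line were separate cultures is not given in the sources used here, so the p-values measure only the spread between these libraries, which may be technical.

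Nucleotide excision repair removes bulky, helix-distorting lesions, among them the intrastrand crosslinks that cisplatin makes between neighbouring purines. Damage is found either across the whole genome, by DDB2 and XPC, or where an RNA polymerase stalls, by ERCC6 and ERCC8. Both routes bring in TFIIH, whose helicases ERCC2 and ERCC3 open the DNA around the lesion, then XPA, which checks the damage, and finally the nucleases ERCC5 on the 3′ side and ERCC1 with ERCC4 on the 5′ side, before the gap is filled by the replication machinery. Inherited loss of these genes underlies xeroderma pigmentosum and Cockayne syndrome, and ERCC1 and ERCC2 have long been examined in bladder cancer in relation to platinum drugs.

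The repair genes did not move as a block. In T24R2, the helicase gene ERCC2 rose 2.65-fold, the damage sensor XPC rose 1.84-fold, the helicase gene ERCC3 rose 1.48-fold and XPA rose 1.42-fold, while the sensor DDB2 fell to 35.9% and the nuclease subunit ERCC1 fell to 59.1% of the T24 mean. The other members, ERCC4, ERCC5, ERCC6 and ERCC8, were not called. A gene was called when edgeR's quasi-likelihood test gave a Benjamini-Hochberg adjusted p under 0.05 and the absolute log2 fold change was over 0.5, the study's thresholds. That made 4 members called higher and 2 called lower. The study applied these thresholds to shrunken DESeq2 fold changes. With DESeq2 and apeglm shrinkage, 3 members were called higher and 2 lower, since XPA (0.497) was then below the fold minimum. These lines differ across the transcriptome: 51.4% of all tested genes were called, 24.9% as higher and 26.5% as lower in T24R2, so 6 called members of 10 is near the share among all genes. The median log2 fold change was 0.30 over the 10 members and 0.01 over all tested genes. In 7 of the 10, every T24R2 library lay on the same side of every T24 library, as it did for 61.2% of all tested genes.

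**Figure D1:**
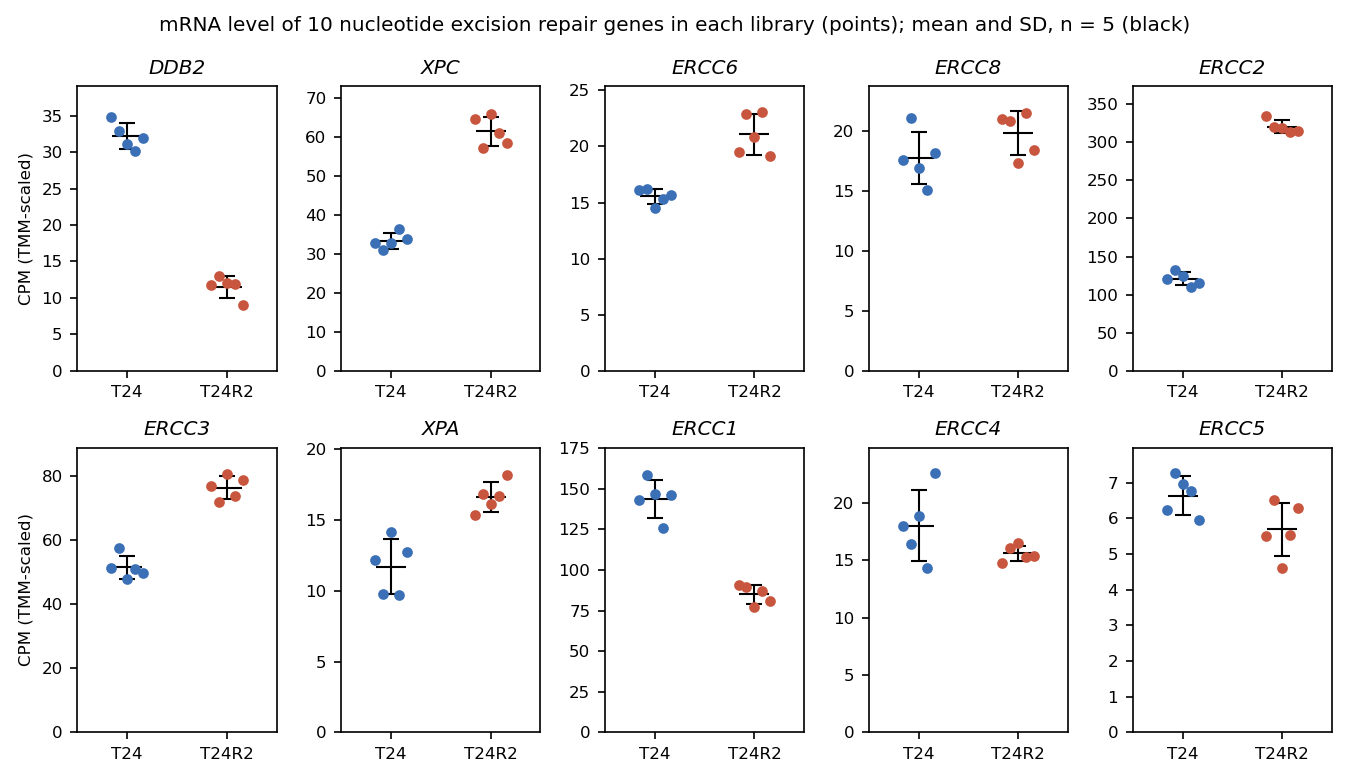
TMM-scaled CPM, counts relative to library size (y axes from 0), of each repair gene in the 5 T24 libraries (blue) and the 5 T24R2 libraries (red), with the mean and SD in black. ERCC2, XPC, ERCC3, XPA and ERCC6 are higher and DDB2 and ERCC1 lower in every T24R2 library, whereas the points of ERCC4, ERCC5 and ERCC8 overlap.

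Total counts per library ran from 9257843 to 10247941 in T24 and from 9591379 to 10840954 in T24R2, and levels below are TMM-scaled CPM, given as mean and SD of 5 libraries. The biological coefficient of variation between replicates, as estimated by edgeR, was 6.61%. Of 14 urothelial and epithelial markers, 9 passed the count filter and all 9 were called lower in T24R2, beside 26.5% of all tested genes. The keratins KRT7, KRT8 and KRT18 stayed among the abundant transcripts of both lines, with KRT7 at 2242 CPM in T24 and 1370.0 CPM in T24R2. KRT19 went from 267 CPM to 0.0887 CPM and GATA3 from 22.1 CPM to 0.214 CPM, the uroplakins UPK1A, UPK1B and UPK3A averaged under 1 CPM in both lines, KRT20 had no count in any library, and the summed level of the list was 5009 to 5743 CPM in T24 and 3028 to 3232 CPM in T24R2. Of 8 mesenchymal markers, VIM rose from 482 to 3963 CPM, COL1A1, PDGFRB and ACTA2 fell, and 4 had at most 3 counts in every library. Of 7 immune and endothelial markers, CDH5 fell from 239 to 0.559 CPM and PECAM1 fell from 5.36 to 1.17 CPM. What part these differences between the lines have in the levels of the repair genes was not tested. In bulk RNA, fewer cells that express a gene and less of its RNA per cell cannot be told apart.

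DDB2 (ENSG00000134574.12, chromosome 11, 47214465 to 47239217, plus strand, hg38) encodes the subunit of the UV-damage sensor that contacts the lesion. Its level in the T24 libraries was 34.9, 32.9, 31.1, 30.1 and 32.0 CPM. In the T24R2 libraries it was 11.7, 13.0, 12.1, 11.9 and 9.05 CPM. The lowest T24 library was thus far above the highest T24R2 library. The means were 32.2 ± 1.83 CPM in T24 and 11.5 ± 1.48 CPM in T24R2 (SD, n = 5 each), from 272 to 336 counts per T24 library and 92 to 150 per T24R2 library. The log2 fold change was -1.48 (SE 0.10, 95% interval -1.67 to -1.28, Benjamini-Hochberg adjusted p = 4.5e-17 by edgeR's quasi-likelihood test). No annotated gene shares exon bases with DDB2, so its counts are free of overlap on either strand.

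DDB1, the adaptor that holds DDB2 in a cullin ubiquitin ligase, was the most abundant of the recognition genes and was not called, at 455 ± 9.98 CPM in T24 and 432 ± 8.16 CPM in T24R2, with a log2 fold change of -0.08 (SE 0.04). The pair therefore shifted within libraries. The log2 ratio of DDB2 to DDB1 counts was between -3.88 and -3.72 in T24 and between -5.59 and -5.04 in T24R2. Its mean difference was -1.41 (exact two-sided permutation test, p = 0.00794, adjusted p = 0.00992 over 5 ratios). A ratio within a library shows unequal change of the partners, and does not depend on the scaling of that library. CUL4A, the cullin of the same ligase, fell from 130.3 ± 8.61 to 55.1 ± 2.32 CPM (log2 fold change -1.24, SE 0.05, adjusted p = 1.4e-22 by edgeR). Its paralog CUL4B was not called (log2 fold change -0.12). Of the 7 other genes of global genome recognition, CUL4A was the only one called, and none was called higher, beside 51.4% of all tested genes called.

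XPC (ENSG00000154767.15, chromosome 3, 14145147 to 14178621, minus strand) encodes the protein that senses helix distortion in non-transcribed DNA. Its levels in T24 were 32.7, 31.0, 32.7, 36.4 and 33.7 CPM. In T24R2 they were 64.5, 57.1, 65.8, 60.9 and 58.4 CPM. The 2 sets of libraries were well apart, in the direction opposite to DDB2. The means were 33.3 ± 1.96 and 61.3 ± 3.77 CPM, and the log2 fold change was 0.88 (SE 0.07, 95% interval 0.75 to 1.02, adjusted p = 4.2e-15 by edgeR's quasi-likelihood test). XPC works as a complex with RAD23B, which was at 258 ± 7.59 CPM in T24 and 233 ± 4.43 CPM in T24R2, a log2 fold change of -0.14 that was under the fold minimum. The log2 ratio of XPC to RAD23B ran from -3.09 to -2.77 in T24 and from -2.03 to -1.84 in T24R2, a difference of 1.03 (exact two-sided permutation test, p = 0.00794, adjusted p = 0.00992 over 5 ratios).

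Counting took the strand of the first read (strand option 1), but the library kit is not described as strand-specific in the sources used here, and genes on the opposite strand cover part of several members. XPC-AS1 and ENSG00000268279 lie opposite 24.6% and 8.91% of the exon bases of XPC. XPC-AS1 averaged 140 counts in T24 and 296 in T24R2, with a log2 fold change of 0.85 beside 0.88 for XPC. With every count of the opposite genes subtracted, XPC kept a log2 fold change of 0.88. Because XPC-AS1 changed by nearly the same fold, its subtraction could hardly move that value. It does not show whether opposite-strand reads add to the rise of XPC.

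In the transcription-coupled branch, ERCC6 (ENSG00000225830.16, chromosome 10, 49454168 to 49539538, minus strand) encodes CSB, the remodeller that binds the stalled polymerase. Its level was 16.1, 16.2, 14.5, 15.3 and 15.7 CPM in T24. It was 19.5, 22.9, 20.8, 23.1 and 19.2 CPM in T24R2. The libraries did not overlap, and the means were 15.5 ± 0.69 and 21.1 ± 1.82 CPM. ERCC6 had a log2 fold change of 0.44 (SE 0.10, 95% interval 0.25 to 0.63, adjusted p = 8.1e-05 by edgeR's quasi-likelihood test), past the p threshold but under the fold minimum. It was the member nearest below that minimum, and was called with upper-quartile normalization (0.52) and without scaling beyond library size (0.60).

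ERCC8 (ENSG00000049167.16, chromosome 5, 60866454 to 60945073, minus strand) encodes CSA, the partner of DDB1 in the ligase of this branch. It ran from 15.1 to 21.0 CPM in T24 and from 17.3 to 21.5 CPM in T24R2, so the libraries overlapped. Its log2 fold change was 0.16 (95% interval -0.04 to 0.36, adjusted p = 0.15 by edgeR's quasi-likelihood test). The log2 ratio of ERCC8 to ERCC6 averaged 0.18 ± 0.15 in T24 and -0.09 ± 0.14 in T24R2 (n = 5 each). The difference of -0.28 passed the exact two-sided permutation test (p = 0.0159, adjusted p = 0.0159 over 5 ratios) although the libraries overlapped. Of 6 other genes of this branch, 3 were called, all lower. Over all tested genes 51.4% were called, so 3 called of 6 is near the share among all genes. Called lower were 26.5% of all tested genes. UVSSA, which stabilizes ERCC6, fell from 44.7 ± 1.58 to 26.3 ± 0.70 CPM (log2 fold change -0.76). The chromatin protein HMGN1, the most abundant of them, fell from 274 ± 8.42 to 179 ± 13.0 CPM (-0.61). USP7, the deubiquitinase that UVSSA brings in, had a log2 fold change of -0.58. The elongation factors ELOF1 and TCEA1 and the scaffold XAB2 were not called.

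ERCC2 (ENSG00000104884.17, chromosome 19, 45349837 to 45370918, minus strand) encodes XPD, the TFIIH helicase that verifies damage and unwinds in the 5′ to 3′ direction. It was the member with the largest rise. The T24 libraries held 121, 132, 125, 110.1 and 115 CPM. The T24R2 libraries held 335, 320.5, 319, 313 and 315 CPM. Every T24R2 value was far above every T24 value, and the spread among the T24R2 libraries was small beside the gap. The means were 121 ± 8.58 and 320.4 ± 8.54 CPM (SD, n = 5 each), with a log2 fold change of 1.41 (SE 0.05, 95% interval 1.31 to 1.51, adjusted p = 2.3e-26 by edgeR's quasi-likelihood test). KLC3, which lies opposite 7.71% of its exon bases, rose from 244 to 759 counts with the same log2 fold change of 1.41. With all KLC3 counts subtracted, the log2 fold change of ERCC2 stayed at 1.41. Because KLC3 changed by the same fold, this subtraction could not move the value. It does not show whether opposite-strand reads add to the rise of ERCC2.

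ERCC3 (ENSG00000163161.14, chromosome 2, 127257290 to 127294166, minus strand) encodes XPB, the TFIIH translocase. Its T24 libraries were at 51.3, 57.8, 48.0, 51.0 and 49.8 CPM. Its T24R2 libraries were at 77.1, 72.0, 80.8, 73.9 and 78.8 CPM. The rise was smaller than that of ERCC2, and the libraries did not overlap. Its log2 fold change was 0.57 (SE 0.06, 95% interval 0.45 to 0.69, adjusted p = 4.6e-11 by edgeR's quasi-likelihood test). The log2 ratio of ERCC2 to ERCC3 went from 1.23 ± 0.10 to 2.07 ± 0.08, a difference of 0.84 that separated all libraries (exact two-sided permutation test, p = 0.00794, adjusted p = 0.00992 over 5 ratios).

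Among the 10 subunits of TFIIH and its kinase module, ERCC2 and ERCC3 included, 9 could be tested, 5 were called higher and none lower, with a median log2 fold change of 0.57. Over all tested genes 24.9% were called higher and 26.5% lower, and the median was 0.01. GTF2H3, which encodes a core subunit, rose from 38.2 ± 2.78 to 68.8 ± 4.05 CPM (log2 fold change 0.85). CCNH, the cyclin of the kinase module and the most abundant of the 8 subunits other than the members, rose from 66.9 ± 3.93 to 118.6 ± 5.99 CPM (0.83), and 21.2% of its exon bases lie opposite other genes. GTF2H2 rose too (0.63), but it has near-identical copies in the genome, and how uniquely mapped fragments divide between them is uncertain. GTF2H5 (0.41), GTF2H1 (0.09), CDK7 (-0.14) and MNAT1 (-0.34) were not called. GTF2H4 had at most 3 counts in each library and was not tested. An overlapping gene on the same strand, ENSG00000288473, covers 98.0% of its canonical transcript, and fragments in such overlaps are assigned to neither gene.

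**Figure D2:**
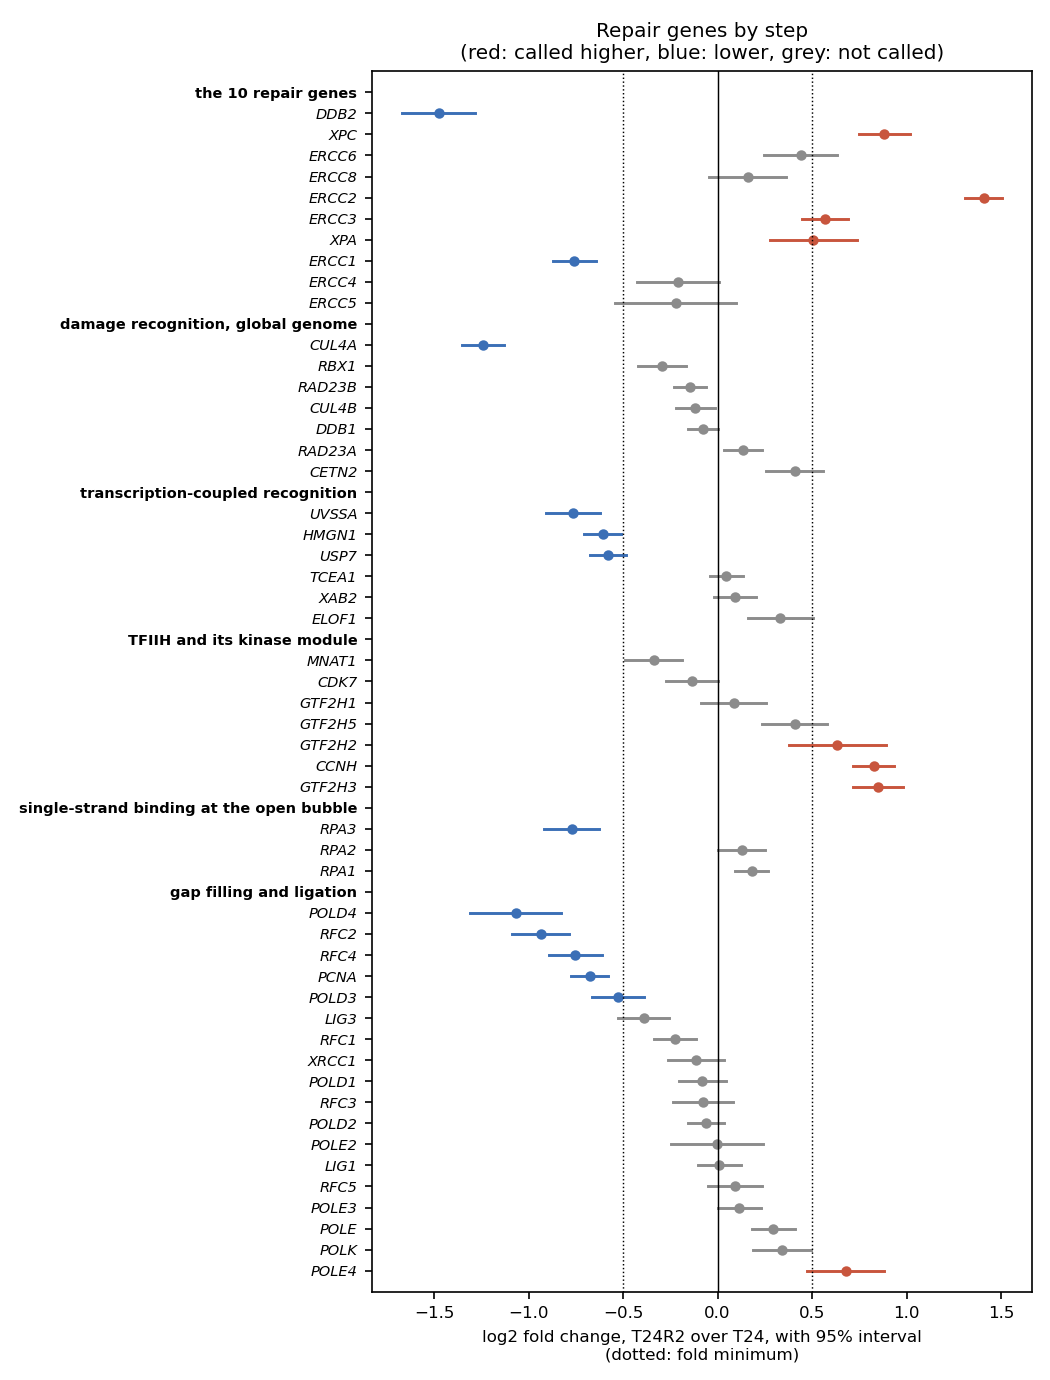
Log2 fold change of T24R2 over T24 (x axis) with its 95% interval for the 10 repair genes and for 41 tested genes of the rest of the pathway, grouped by step, with dotted lines at -0.5 and 0.5. The members point both ways, from -1.48 for DDB2 to 1.41 for ERCC2, the TFIIH genes that were called are all higher, and 5 of the 6 called gap filling genes are lower.

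XPA (ENSG00000136936.11, chromosome 9, 97674909 to 97697340, minus strand) encodes the zinc finger protein that organizes the incision complex. It stood at 12.1, 9.78, 14.2, 9.68 and 12.7 CPM in T24. It stood at 15.3, 16.8, 16.1, 16.7 and 18.2 CPM in T24R2. All T24R2 libraries were higher, but the gap between the groups was narrow beside the T24 spread. The log2 fold change was 0.51 (SE 0.11, 95% interval 0.28 to 0.74, adjusted p = 0.00014 by edgeR's quasi-likelihood test), so XPA was the called member nearest the fold minimum. It dropped below that minimum without T24 replicate 2 (0.45), without T24 replicate 4 (0.44), without T24R2 replicate 5 (0.48) and with DESeq2 and apeglm shrinkage (0.497). Of its partners that coat the open strand, RPA3 fell from 44.0 ± 1.46 to 25.7 ± 1.18 CPM (log2 fold change -0.77). RPA1, the largest subunit and the most abundant, was at 219 ± 5.78 and 248 ± 9.68 CPM (0.18) and was not called, nor was RPA2 (0.13).

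ERCC1 (ENSG00000012061.16, chromosome 19, 45407334 to 45478828, minus strand) encodes the DNA-binding subunit of the nuclease that cuts 5′ of the lesion, which also acts in interstrand crosslink repair. Its levels in T24 were 143, 158, 147, 126 and 146 CPM. In T24R2 they were 90.8, 89.6, 77.1, 87.0 and 80.9 CPM. The libraries did not overlap. The means were 144 ± 11.8 and 85.1 ± 5.88 CPM and the log2 fold change was -0.76 (SE 0.06, 95% interval -0.87 to -0.64, adjusted p = 2.6e-15 by edgeR's quasi-likelihood test). POLR1G lies opposite 28.6% of the exon bases of ERCC1 and 47.1% of its canonical transcript. POLR1G averaged 397 counts in T24 and 454 in T24R2 and was not called (log2 fold change -0.03). With all POLR1G counts subtracted, the log2 fold change of ERCC1 was -1.22, and with only the overlapped share subtracted it was -0.93. The study also lists quantitative PCR primers for ERCC1 mRNA, but its text names no PCR result for ERCC1. Its next step, PCR of methylated RNA, took up transcripts whose expression change the first PCR upheld. The primers listed for that step do not include ERCC1. Going by these primer lists, ERCC1 was a candidate whose expression change the first PCR did not uphold, though the text does not state this by name. The fall of ERCC1 given here is from RNA-seq only.

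ERCC4 (ENSG00000175595.16, chromosome 16, 13920138 to 13952348, plus strand) encodes XPF, the catalytic subunit of the same nuclease. It ranged from 14.3 to 22.6 CPM in T24 and from 14.8 to 16.5 CPM in T24R2, so the T24R2 libraries lay inside the T24 range. The log2 fold change of -0.21 (95% interval -0.43 to 0.01, adjusted p = 0.078 by edgeR's quasi-likelihood test) was not called. The subunits of the heterodimer thus moved unequally. The log2 ratio of ERCC4 to ERCC1 was -3.01 ± 0.22 in T24 and -2.45 ± 0.15 in T24R2, a difference of 0.56 (exact two-sided permutation test, p = 0.00794, adjusted p = 0.00992 over 5 ratios). That difference was 1.11 once counts of opposite-strand genes were subtracted from both, an alternative chosen after seeing the data.

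ERCC5 (ENSG00000134899.24, chromosome 13, 102845831 to 102875995, plus strand) encodes XPG, the nuclease that cuts 3′ of the lesion. It ranged from 5.94 to 7.26 CPM in T24 and from 4.61 to 6.50 CPM in T24R2, with 48 to 75 counts per library. The log2 fold change was -0.22 (95% interval -0.54 to 0.10, adjusted p = 0.20 by edgeR's quasi-likelihood test), so a change of up to about the fold minimum was not resolved with these few counts. The readthrough gene BIVM-ERCC5 lies on the same strand over 91.7% of the canonical ERCC5 transcript and had 0 counts in both lines, since fragments shared by the annotations are assigned to neither. Over all annotated ERCC5 exons the readthrough model covers 33.0% of the bases, so the ERCC5 values come from exon bases outside it, few of which belong to the canonical transcript.

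**Figure D3:**
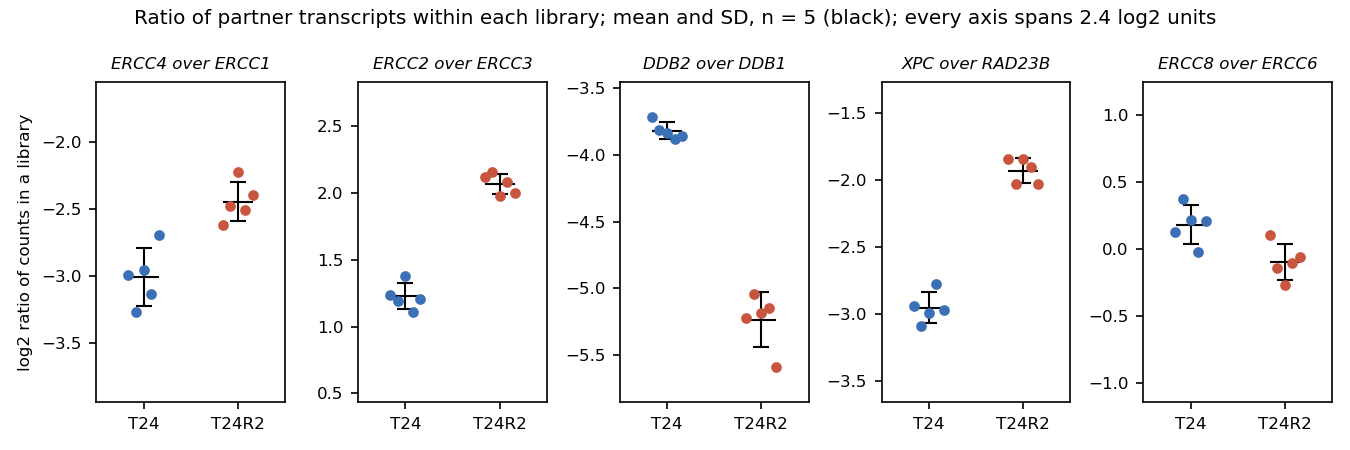
Log2 ratio of the counts of partner genes within each library (y axes, each spanning the same number of log2 units) for T24 (blue) and T24R2 (red), with mean and SD in black. The ratios ERCC4 over ERCC1, ERCC2 over ERCC3 and XPC over RAD23B are higher and DDB2 over DDB1 is lower in every T24R2 library, while ERCC8 over ERCC6 overlaps between the lines.

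After incision, the gap is filled by DNA polymerases with PCNA and its loader, and sealed by a ligase. Of 18 such genes, 1 was called higher and 5 lower, beside 24.9% and 26.5% of all tested genes. PCNA, the sliding clamp and the most abundant of the list, fell from 201 ± 10.5 to 126 ± 7.62 CPM (log2 fold change -0.68, SE 0.05). The polymerase delta subunit POLD4 fell from 16.8 ± 1.42 to 7.99 ± 0.88 CPM (-1.07), and 21.3% of its exon bases are shared with a gene on the same strand. The clamp loader subunit RFC2 fell from 47.8 ± 3.21 to 25.0 ± 1.68 CPM (-0.94). RFC4 (-0.75) and POLD3 (-0.53) fell as well. POLE4, a small subunit of polymerase epsilon, rose (0.68). The ligases LIG1 (0.01) and LIG3 (-0.39) were not called. Over all steps, 41 of the 42 pathway genes beyond the members were tested. Of these, 4 were called higher and 10 lower (7 and 7 without scaling beyond library size), beside 51.4% of all tested genes called in either direction. Their median log2 fold change was -0.08, beside 0.01 over all genes. Another 13 passed the p threshold with a change under the fold minimum.

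Since gap filling genes also serve replication, 13 genes of S phase and proliferation are set beside them. Of these, 1 was called higher and 2 lower, beside 24.9% and 26.5% of all tested genes. Their median log2 fold change was -0.02. MKI67, a marker of cycling cells, fell from 737 ± 27.9 to 318 ± 18.0 CPM (-1.21), whereas MCM7, a helicase subunit, rose from 267 ± 14.1 to 532 ± 12.5 CPM (1.00). The part of proliferation in the levels of the repair genes was not tested.

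DDB2 and XPC are known as targets of p53. Of 12 other p53 targets, 8 were called lower and 4 higher in T24R2, beside 26.5% and 24.9% of all tested genes. Their median log2 fold change was -1.08, beside 0.01 over all genes. CDKN1A, which encodes the cell cycle inhibitor p21, fell from 97.7 ± 4.11 to 12.8 ± 1.76 CPM (-2.93), and PHLDA3, a repressor of AKT, fell from 25.6 ± 1.31 to 4.27 ± 0.84 CPM (-2.57). GADD45A, the most abundant of the 12, fell from 169 to 70.2 CPM (-1.26). SESN1 (1.17), TIGAR (1.32), TP53I3 (1.27) and the ribonucleotide reductase subunit RRM2B (0.53) rose. The summed level of the 12 was 525 to 548 CPM in T24 and 241 to 257 CPM in T24R2. DDB2 was thus lower along with the larger share of the list, and XPC higher along with the smaller.

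The promoters of DDB2 and XPC are shown because these damage sensors moved in opposite directions. The sequences are from RefSeq (GRCh38.p14), whose table gave 14 windows of 250 bases before to 50 after a start site for the 10 members. The first line is the stretch before the second start site of DDB2, chr11:47214724-47214973 (plus strand), in which capitals mark the GC box GGGCGG on either strand. The second line is the site just inside that start, chr11:47214979-47214999 (plus strand, bases 6 to 26 after the start, in the 5′ UTR), in which capitals mark 2 adjoining p53 decamers. The third line is the part of the XPC promoter outside annotated exons, chr3:14178622-14178816 (minus strand), in which capitals mark the GC box and the antioxidant response element core TGACNNNGC bound by NRF2.
DDB2 upstream: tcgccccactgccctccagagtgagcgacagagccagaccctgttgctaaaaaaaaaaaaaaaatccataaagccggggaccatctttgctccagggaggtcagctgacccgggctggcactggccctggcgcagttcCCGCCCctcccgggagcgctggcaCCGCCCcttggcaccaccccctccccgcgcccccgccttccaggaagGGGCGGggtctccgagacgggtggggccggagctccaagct
DDB2 p53 site: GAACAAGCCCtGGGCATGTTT
XPC upstream: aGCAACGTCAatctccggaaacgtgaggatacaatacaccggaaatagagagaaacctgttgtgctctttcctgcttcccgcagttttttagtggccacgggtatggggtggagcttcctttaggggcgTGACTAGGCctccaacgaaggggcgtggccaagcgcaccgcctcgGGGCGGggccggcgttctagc

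DDB2 was the only member with a match to the p53 decamer in its windows, a motif found in 6.63% of the 35116 windows in the table. XPC, ERCC3 and ERCC8 held the antioxidant response element core, found in 13.3% of windows. The GC box was present in 8 of the 10 members, all but ERCC3 and ERCC4, and in 45.0% of windows. The CCAAT box, CCAAT, was present in DDB2, ERCC1, ERCC2 and ERCC8 and in 34.6% of windows, and the ETS core CCGGAAG in ERCC1, ERCC3, ERCC4 and ERCC5 and in 10.3% of windows. The AP-1 site TGANTCA, found in 7.71% of windows, was in none of them. Both strands were searched. ERCC1 and ERCC2, called in opposite directions, both held the GC box and the CCAAT box, and ERCC1 and ERCC3, also called in opposite directions, both held the ETS core. Among the called members, the antioxidant response element core was only in XPC and ERCC3, called higher. The p53 decamer was only in DDB2, called lower. What part any of these motifs has in the changes was not tested. A member was counted if any of its windows held a match, and the 10 members have 14 windows. The percents are of single windows, so they are not on the same scale as the counts of members. These matches describe letters in the window, not binding.

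The genes around the members were also described. All 10 of the nearest tested genes around DDB2, 5 on each side within 683 kb of chromosome 11, had log2 fold changes below 0, and 8 were called lower, beside 26.5% of all tested genes. The nearest on either side were PACSIN3 (-1.25), an endocytic adaptor, and the acid phosphatase gene ACP2 (-1.08), and the neighbours ran from -3.48 for LRP4 to -0.32 for ARFGAP2. The fall of DDB2 was larger than the neighbours' median of -1.02. Around XPC, 6 of 10 neighbours were called higher and 1 lower, beside 24.9% and 26.5% of all tested genes, with a median of 0.62. XPC-AS1 (0.85), among those called higher, lies opposite 24.6% of the exon bases of XPC, so the 2 may share reads. LSM3, which starts beside XPC and is read in the other direction, was not called (0.13), SLC6A6 rose (1.14) and WNT7A fell (-5.36).

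ERCC1 and ERCC2 lie in the same stretch of chromosome 19 and moved in opposite directions. On the ERCC2 side, KLC3 (1.41) and TRAPPC6A (1.24) were called higher, while BLOC1S3 (0.31), which lies between them, PPP1R37 (0.14) and MARK4 (-0.35) were not called. KLC3 lies opposite part of the exons of ERCC2, so KLC3 and ERCC2 may share reads. On the ERCC1 side, PPP1R13L (-0.72), RTN2 (-0.96) and VASP (-0.82) were called lower. PPP1R13L lies between ERCC2 and ERCC1 and encodes an inhibitor of p53. FOSB (-0.24), POLR1G (-0.03), PPM1N (-0.44) and OPA3 (0.12) were not called. Around ERCC1 as around ERCC2, 2 of 10 neighbours were called higher and 3 lower, beside 24.9% and 26.5% of all tested genes. Each of these members is counted among the neighbours of the other. Around ERCC3, 5 of 10 neighbours were called higher and 1 lower, beside 24.9% and 26.5% of all tested genes, with a median of 0.49. The nearest were CYP27C1 (-5.13, lower) and ENSG00000286145 (0.65, higher). Around XPA, 1 was called higher and 1 lower, with a median of -0.06, and the nearest were NCBP1 (0.33, not called) and TRMO (0.89, higher). Copy number was not analysed here, and its part in these patterns was not tested.

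**Figure D4:**
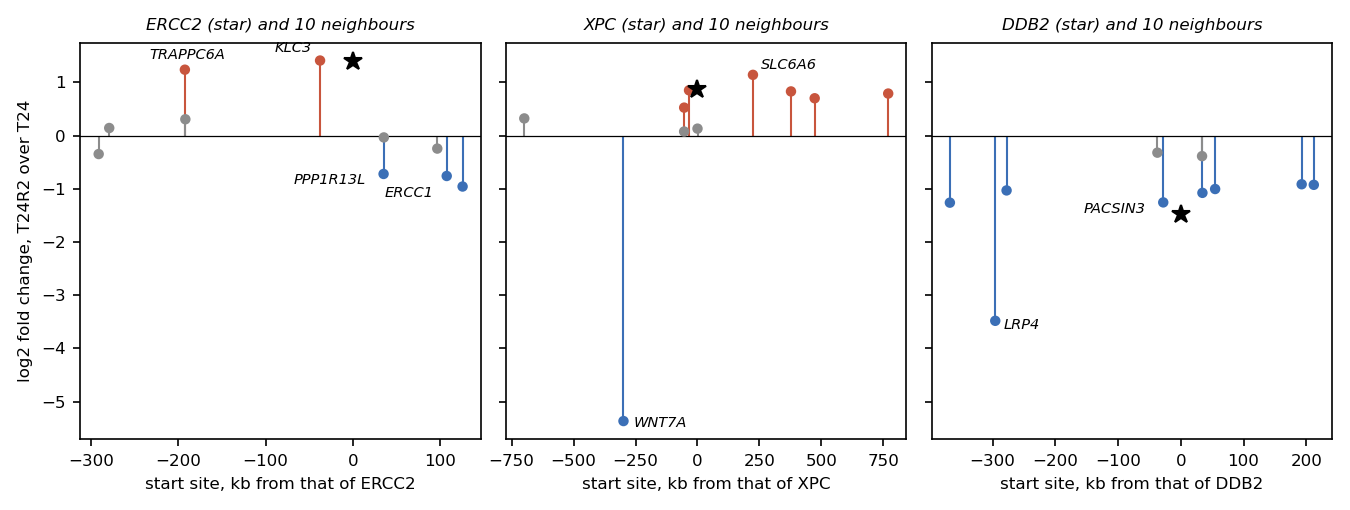
Log2 fold change of T24R2 over T24 (y axis) for ERCC2, XPC and DDB2 (stars) and the 10 nearest tested genes of each, by the distance of their start sites in kilobases (x axis), coloured red where called higher, blue where called lower and grey otherwise. All 10 neighbours of DDB2 lie below 0, most neighbours of XPC lie above 0, and those of ERCC2 point both ways, with KLC3 and PPP1R13L, the nearest on either side, in opposite directions.

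To compare levels between genes, CPM were divided by the union exon length in kilobases (level per kb). In T24, ERCC1 stood highest at 25.8 ± 2.11 per kb, followed by ERCC2 at 17.4 ± 1.24 per kb. XPC (7.18), DDB2 (6.65), XPA (6.45) and ERCC3 (6.13) formed a middle group whose neighbours in this order overlapped between libraries. ERCC4 (1.14), ERCC6 (0.673), ERCC8 (0.670) and ERCC5 (0.601) were the lowest per kb. In T24R2 the top 2 exchanged places on this scale, with ERCC2 at 46.2 ± 1.23 per kb and ERCC1 at 15.3 ± 1.05 per kb. DDB2 left the middle group for 2.38 ± 0.31 per kb, below XPC at 13.2, XPA at 9.15 and ERCC3 at 9.09 per kb. Per kb of the canonical transcript all levels were higher, with ERCC1 at 42.6 and ERCC2 at 29.4 in T24, and ERCC3 at 19.0 moved above DDB2 at 17.7, XPC at 9.12 and XPA at 8.36. On that scale in T24R2, ERCC2 at 78.0 was followed by ERCC3 at 28.1 and ERCC1 at 25.2. With both lengths, ERCC1 was first in T24 and ERCC2 first in T24R2. ERCC5 was last in both, within the limit of its counting given above. Genes on the opposite strand cover part of ERCC1, ERCC2, ERCC4 and XPC, and these levels are not corrected for reads they may share. In T24, XPC-AS1 averaged 140 counts beside 286 to 338 per library for XPC. The place of XPC in the middle group is therefore uncertain.

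**Figure D5:**
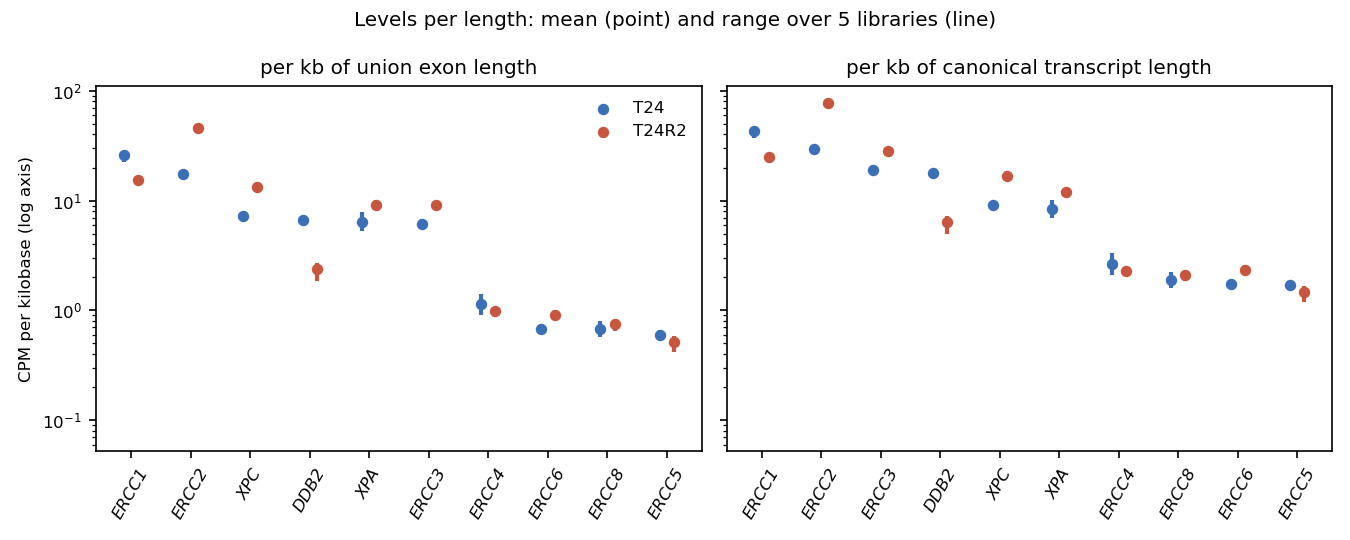
Level of each repair gene per kilobase (log y axis, CPM per kb) in T24 (blue) and T24R2 (red), as mean and range over 5 libraries, per kb of union exon length (left) and of canonical transcript (right), ordered by the T24 mean. ERCC1 leads in T24 and ERCC2 in T24R2 on both scales, and ERCC4, ERCC6, ERCC8 and ERCC5 stay lowest.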

How the data were processed

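RNA-seq was measured in 5 libraries of T24 and 5 of T24R2. The authors used STAR 2.7.0 for alignment to hg38, samtools 1.10 to remove duplicates and multiply mapped reads, and featureCounts 2.0.1 with strand option 1 to assign fragments to GENCODE release 39. The deposited values are raw counts, neither normalized nor pooled, and the tables held 0 columns of other samples. Removal of duplicates by position may lower the counts of abundant transcripts, and intervals cover counting error and the spread between libraries only.

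Samples were grouped by the cell line in the labels. Lines were compared with edgeR 4.0.16 in R 4.3.3 (filterByExpr, TMM normalization, glmQLFit, glmQLFTest), with Benjamini-Hochberg adjustment over 16181 genes and the study's thresholds, 0.05 for the adjusted p and 0.5 for the absolute log2 fold change. CPM are counts relative to TMM-scaled library size. In simulated counts with 200 of 15927 genes changed, the same steps called 194 of them and 3 unchanged genes. In the measured libraries 51.4% of all tested genes were called. How these steps, TMM normalization among them, perform with so large a share of genes changed was not tested. Ratios of partners and single genes were compared by exact two-sided permutation tests, for which 0.00794 is the smallest p that 5 against 5 libraries can give. Exon overlaps were found with bedtools 2.31.1, canonical transcripts were those of GENCODE release 44 on the same build, and motifs were searched in RefSeq promoter windows. Python 3.11.15, SciPy 1.17.1 and matplotlib 3.10.9 were used for the rest.

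The members and all lists were chosen with earlier results of these data known. Named genes were the members, their ratio partners and overlapping genes, the 2 called genes of each list with the largest absolute log2 fold change and its most abundant gene, and the nearest tested neighbours of called members. Other genes named were chosen after their values were seen. Alternatives were other normalizations, DESeq2 1.42.0 without and with apeglm 1.24.0 shrinkage, limma-voom (limma 3.58.1), other count filters and fold minimums, a replicate block, subtraction of opposite-strand counts and leaving out each library. The result of 1 marker gene is not reported here.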

Additional observations from a re-analysis of the deposited data

How the results depend on the processing

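No result reversed its direction. The count of members called higher was between 1 and 5 over 14 alternatives and the count called lower between 1 and 2. With a fold minimum of 1 on the log2 scale, 1 member was called higher (ERCC2) and 1 lower (DDB2), and 0 other pathway genes were called higher and 2 lower. With no fold minimum, 11 other pathway genes were called higher and 16 lower. Without scaling beyond library size, 7 were called higher and 7 lower, in place of 4 and 10, the all-gene median log2 fold change went from 0.01 to 0.18, and the calls over all genes went from 4027 higher and 4282 lower to 5206 and 3431. Without members that an opposite-strand gene overlaps over more than 10% of exon bases, chosen after seeing the data, 1 was called lower (DDB2) and 3 higher. Leaving out each library in turn gave 3 to 4 members called higher and 2 called lower, 4 other pathway genes higher and 9 to 10 lower, and differences in log2 ratio of 0.50 to 0.64 for ERCC4 over ERCC1, 0.81 to 0.88 for ERCC2 over ERCC3, -1.46 to -1.32 for DDB2 over DDB1, 0.99 to 1.07 for XPC over RAD23B and -0.33 to -0.23 for ERCC8 over ERCC6. With the replicate number as a block, 4 members were called higher and 2 lower, and 4 and 10 other pathway genes, as without it. Libraries with the same number deviated from their group means with correlations of -0.02 to 0.02, and 1 of 5 numbers had its own partner as best match. No link between same-numbered libraries was thus seen. What the numbers mark is not given in the labels, and a shared batch is not excluded. ERCC5 did not reach a mean of 100 counts and has no value under that filter. The cause of these differences between settings was not tested. ERCC5, at 48 to 75 counts per library, had the fewest counts of all members, within the limit of its counting given above.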
